A study of Mus musculus with 6 samples.

Results

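The ErbB receptors and the neuregulins were followed in nuclear RNA of cerebellar granule cells from mice with and without a conditional knockout of Ezh1. The family was taken as 8 genes, namely the receptor genes Egfr, Erbb2, Erbb3 and Erbb4 and the ligand genes Nrg1, Nrg2, Nrg3 and Nrg4. Rows of the count table were matched to them by NCBI gene identifier, and all 8 were found among its 24594 entries. The family was selected because Erbb4 was already known to differ between the genotypes in these libraries. The genotype differences of the members are therefore given as a description, with no test of the family.

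The study compared 3 libraries labelled Ezh1(wt/wt);Neurod1-Cre (WT) with 3 labelled Ezh1(cKO/cKO);Neurod1-Cre (cKO), all from mice aged 7 months. Both genotypes carried Neurod1-Cre, a Cre recombinase named for Neurod1, a transcription factor of granule neurons. How the Cre was built into the genome, and which part of Ezh1 it removes, are not in the labels. Cerebellar nuclei were fixed, stained for the neuronal antigen NeuN and sorted, so the RNA is that of nuclei, with unspliced transcripts. Ezh1 is an enzyme of the Polycomb complex PRC2, which places H3K27me3, and the comparison concerns the upkeep of that repressive mark in neurons that no longer divide.

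ErbB receptors are tyrosine kinases of the cell surface that work in pairs. Neuregulins are ligands with a domain like that of epidermal growth factor, made as membrane precursors and shed by proteases, and they bind ErbB3 and ErbB4. ErbB2 binds no ligand itself and serves as a partner, whereas ErbB3 has little kinase activity, so each leans on another receptor for signalling. In the cerebellum ErbB4 is known from neurons, ErbB3 and ErbB2 from glia, and neuregulins have long been studied for their effect on receptor subunits of granule cells.

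The DNA before the start sites of 2 of the 3 members whose genotypes did not overlap is printed here, because the knocked-out gene belongs to a chromatin complex that in mammals is often found at promoters rich in CG dinucleotides. Windows come from RefSeq (GRCm38.p6, the assembly behind mm10) and cover positions 250 to 21 before the start that its promoter table uses, 230 bases on the strand of the gene. For Erbb2 that start (98412484) is the outer bound of the annotated gene. For Nrg3 (39473088) and Erbb4 (69108059) it lies 147 and 517 bases inside the outer bound, so 127 bases of the Nrg3 window and the whole Erbb4 window fall within the annotated gene. Sequence is shown for the bases outside the gene, 5′ to 3′ with each CG in capitals, and none is shown for Erbb4. The Nrg3 stretch is chr14:39473236-39473338 on the minus strand (103 bases, 16 CG) and the Erbb2 stretch chr11:98412234-98412463 on the plus strand (230 bases, 15 CG).
Nrg3: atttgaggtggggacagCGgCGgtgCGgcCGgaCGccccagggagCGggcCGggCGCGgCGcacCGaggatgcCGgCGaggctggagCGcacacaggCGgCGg
Erbb2: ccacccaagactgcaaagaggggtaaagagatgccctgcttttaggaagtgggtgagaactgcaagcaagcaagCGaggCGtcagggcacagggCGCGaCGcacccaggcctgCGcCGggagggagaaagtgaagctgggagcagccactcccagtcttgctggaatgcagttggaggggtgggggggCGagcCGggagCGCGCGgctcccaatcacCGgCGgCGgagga
Over the full windows Nrg3 holds 24 CG at a GC content of 71.7%, Erbb2 15 at 65.2% and Erbb4 9 at 53.0%, against a median of 5 CG and 51.7% GC over all 32851 such windows. At least as many CG as in Erbb4 were found in 37.2% of windows, as many as in Erbb2 in 23.7% and as many as in Nrg3 in 9.1%, and 91.1% of windows hold at least 1. Egfr has 10 CG and Nrg4 has 9. Windows were examined for 5 of the 8 members. Erbb3, Nrg1 and Nrg2 were left out, not all of them for lack of a window, so the CG contents do not cover Nrg2. The E-box CANNTG, the short motif bound by basic helix-loop-helix factors such as Neurod1, was searched on both strands. It occurs in 63.5% of windows, once in that of Erbb2 and not in those of Erbb4 and Nrg3. No binding or histone mark was measured in these libraries.

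Libraries held 6340236 to 8284768 counts. Levels are in CPM (counts scaled to a library of 1000000 counts, by its total and a TMM factor), and are given as mean ± SD of 3 libraries. Log2 fold changes are cKO over WT from an edgeR quasi-likelihood fit over 13115 genes that passed a filter on low counts, with a standard error (SE) and a 95% interval, and a gene was called at a Benjamini-Hochberg adjusted p below 0.05. The labels do not say that libraries came from separate animals. The p-values reflect the spread among these libraries alone, which may be partly technical. Ezh1 had a WT level of 76.8 ± 6.18 CPM and a cKO level of 53.1 ± 2.36 CPM, 30.8% lower, with the 2 genotypes apart. Replicate 1 of each genotype had Xist at 814 or 833 CPM against 1.39 to 4.47 CPM in the others, so each genotype held 1 library of that kind. The 3 libraries of a genotype were thus not all repeats of 1 sample. The granule cell marker Gabra6, a GABA-A receptor subunit, was present at 159 CPM in WT and 157 CPM in cKO.

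Erbb4 and Nrg3 were higher in cKO, Erbb2 was lower in all cKO libraries at few counts, and the other 5 members overlapped between the genotypes. All 8 members passed the filter. The median log2 fold change was 0.23 over the members and -0.01 over all tested genes. Of the 8, 2 were called, both higher, against 0.579% of all tested genes called either way and 0.32% called higher. By edgeR 0 were called lower, against 0.259% of tested genes. Limma-voom also called 0 lower, and DESeq2 gave an adjusted p for 3 of the 8 members (not Erbb2) and called 0 of them lower. Erbb2 alone among the lower members had an unadjusted p below 0.05, as 11.9% of all tested genes had in either direction. Genotypes did not overlap for 3 of the 8, and for 16.3% of all tested genes. Because the family was chosen on this contrast, nothing is read from these counts. The count of called members was 1 without WT replicate 2 and 1 without cKO replicate 1, with Nrg3 the gene that was lost.

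**Figure D1:**
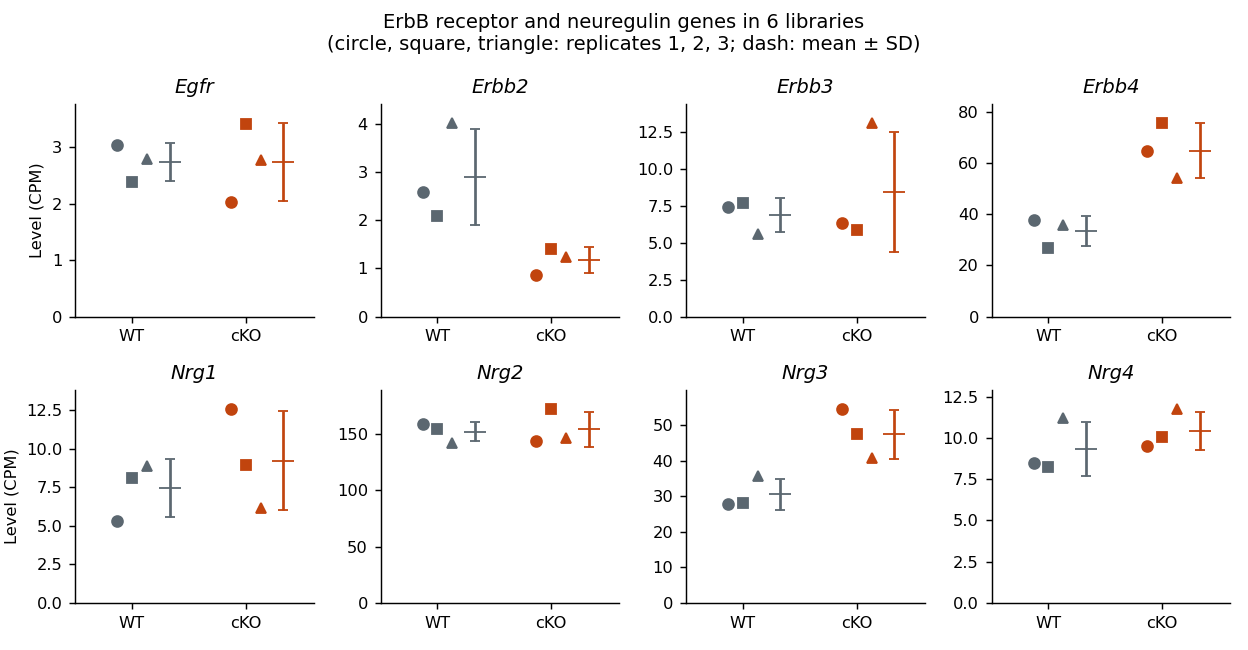
Level of each member in CPM (vertical axes, each from 0) in the 3 WT libraries (grey) and the 3 cKO libraries (orange), with circles, squares and triangles for replicates 1, 2 and 3 and a dash with bars for mean ± SD. All 3 cKO points lie above all WT points for Erbb4 and Nrg3 and below them for Erbb2, and in the other panels the points of the genotypes mix.

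Erbb4 encodes the receptor that binds neuregulins and also signals as a kinase without needing another family member. Its level in WT libraries 1, 2 and 3 was 37.7, 26.9 and 36.0 CPM, and in cKO libraries 1, 2 and 3 it was 64.8, 75.8 and 54.3 CPM. Every cKO library was above every WT library, and the lowest cKO value was 1.44 times the highest WT value. The means were 33.6 ± 5.79 CPM in WT and 65.0 ± 10.8 CPM in cKO, a 1.94-fold difference, from 193 to 296 counts in a WT library and 352 to 490 in a cKO library. The log2 fold change of 0.95 (SE 0.14) had an interval of 0.67 to 1.23, that is 1.59-fold to 2.35-fold. In bulk nuclei, more cells that express a gene and more RNA per cell cannot be told apart. By size of difference Erbb4 was the 8th of the 42 genes called higher. The gene (NCBI gene 13869) lies at chr1:68031884-69108576 on the minus strand (GRCm38), a span of 1076.7 kb with 12.36 kb of exon, and no other entry of the table overlaps it.

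Nrg3 encodes a neuregulin that is made mostly in the nervous system and binds ErbB4. WT libraries stood at 27.7, 28.1 and 35.7 CPM and cKO libraries at 54.4, 47.4 and 40.6 CPM. The genotypes again did not overlap, but the gap was narrow, with the lowest cKO value at 1.14 times the highest WT value. The means of 30.5 ± 4.48 and 47.4 ± 6.90 CPM differed 1.56-fold, with a log2 fold change of 0.64 (SE 0.13, interval 0.36 to 0.91). Nrg3 (NCBI gene 18183, chr14:38365102-39473235, minus strand) spans 1108.1 kb. Nrg3os, a transcript of the opposite strand inside it, was counted 14, 5 and 6 times in WT and 27, 14 and 16 times in cKO, or 1.18 ± 0.813 and 2.84 ± 0.923 CPM, and was not called (log2 fold change 1.29, SE 0.50, adjusted p = 0.278 by edgeR). Whether counting used strand is not given in the sources used here. Reads of this pair cannot be told apart. Nrg3os took at most 27 counts in a library where Nrg3 took 377.

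Erbb2 encodes the partner receptor without a ligand of its own. It was counted 17, 15 and 33 times in WT libraries 1, 2 and 3 and 6, 9 and 8 times in their cKO counterparts, or 2.58, 2.10 and 4.02 CPM against 0.866, 1.39 and 1.23 CPM. The lowest WT library stood at 1.504 times the highest cKO library. Mean levels were 2.90 ± 0.999 CPM and 1.16 ± 0.271 CPM, 2.49-fold higher in WT, and the log2 fold change of -1.32 (SE 0.47) had an interval of -2.29 to -0.35. Erbb2 was not called. It lies at chr11:98412484-98437716 on the plus strand (NCBI gene 13866), on the chromosome of Ezh1 and 2.75 Mb from it. Mien1, whose last bases overlap its end, had 1.599 CPM in WT and 1.62 CPM in cKO.

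Egfr, the receptor for epidermal growth factor (NCBI gene 13649, chr11:16752203-16913907, plus strand), was also scarce. Its libraries stood at 3.03, 2.37 and 2.80 CPM in WT and 2.02, 3.40 and 2.78 CPM in cKO, from 14 to 23 counts each. The cKO values lay on both sides of the WT values. Means were 2.73 ± 0.333 and 2.73 ± 0.693 CPM, with an interval of the log2 fold change from -0.81 to 0.81. Differences from 0.570-fold to 1.75-fold were thus not excluded at this depth.

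Erbb3, the neuregulin receptor with little kinase activity (NCBI gene 13867, chr10:128567523-128589635, minus strand), stood at 7.43, 7.68 and 5.60 CPM in WT and 6.35, 5.88 and 13.1 CPM in cKO. A single library, cKO replicate 3, was high, and the other 2 cKO libraries lay within the WT range. The log2 fold change of 0.29 (SE 0.28, interval -0.28 to 0.87) was -0.17 without that library. The 11 oligodendrocyte markers, genes of the myelin-forming glia in which Erbb3 is also expressed, summed to 470.0, 407 and 275 CPM in WT and 427, 331 and 733 CPM in cKO, so the same library was the highest. Mbp, the myelin basic protein gene, reached 299 CPM there and 114 to 205 CPM elsewhere. Per 1000 CPM of these markers Erbb3 stood at 15.8, 18.9 and 20.3 CPM in WT and 14.9, 17.8 and 17.9 CPM in cKO, a narrower spread in which the genotypes overlapped. Of these 11 markers edgeR and limma-voom called 0, as did DESeq2 among the 4 it gave an adjusted p. By edgeR 0 had an unadjusted p below 0.05. Of all tested genes edgeR called 0.579%, and 11.9% had such an unadjusted p. The part of such cells in the Erbb3 values was not tested.

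Nrg2, a neuregulin of neurons (NCBI gene 100042150, chr18:36014581-36197532, minus strand), was the most abundant member by far. WT libraries had 158, 155 and 142 CPM and cKO libraries 144, 172 and 146 CPM, at 152 ± 8.50 and 154 ± 15.5 CPM. Genotypes overlapped, and the interval of the log2 fold change (0.02, SE 0.09) ran from -0.16 to 0.20, or 0.898-fold to 1.15-fold, the narrowest in the family. Psd2 and 4930471G03Rik overlap Nrg2 on the other strand at 79.5 and 36.7 CPM in WT, so part of its reads may be theirs or the reverse. Only the last bases of Psd2, which ends at 36014715, reach into Nrg2, whereas 4930471G03Rik lies wholly inside it. Neither was called.

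Nrg1, the neuregulin with the best known roles in synapses and myelination (NCBI gene 211323, chr8:31807452-32891609, minus strand), stood at 5.30, 8.10 and 8.88 CPM in WT and 12.5, 8.98 and 6.17 CPM in cKO. The highest and the second lowest values were both from cKO libraries. Its log2 fold change was 0.31 (SE 0.26, interval -0.23 to 0.84) over means of 7.43 ± 1.88 and 9.23 ± 3.197 CPM. Nrg4, a ligand of ErbB4 best known from fat tissue (NCBI gene 83961, chr9:55220222-55283654, minus strand), had 8.49, 8.24 and 11.2 CPM in WT and 9.52, 10.1 and 11.7 CPM in cKO. The ranges overlapped, with a log2 fold change of 0.16 (SE 0.21, interval -0.28 to 0.60). Fbxo22, which overlaps the end of Nrg4 on the other strand, was at 18.7 CPM in both genotypes.

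**Figure D2:**
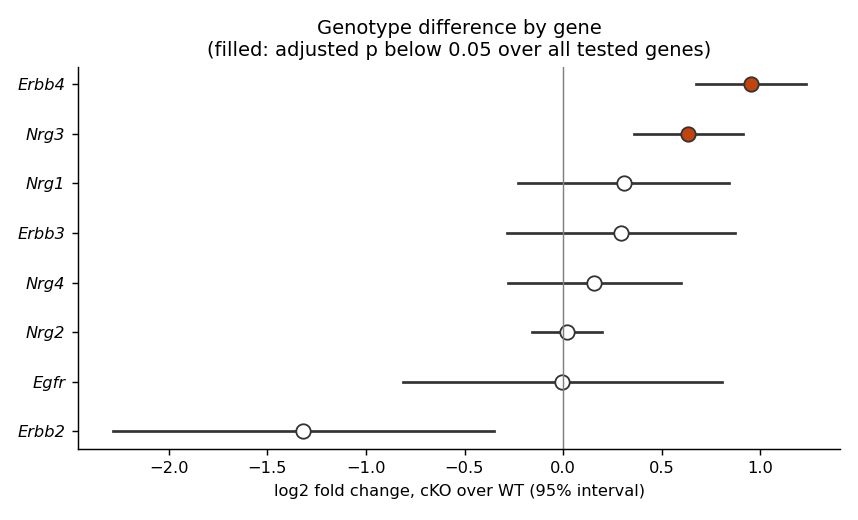
Log2 fold change of each member, cKO over WT (horizontal axis), with its 95% interval as a line and a filled point where the gene was called among 13115 tested genes. Erbb4 at 0.95 and Nrg3 at 0.64 are filled, Erbb2 at -1.32 has the longest interval, and the interval of Nrg2 is the shortest around 0.

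The width of an interval followed the counts behind it. It reached 0.97 on either side of the estimate for Erbb2 and 0.81 for Egfr, and 0.18 for Nrg2. Genes of a level like that of Erbb2 had a median of 0.89, and 1 of 2346 of them was called. For genes of a level like that of Nrg2, 32 of 1718 were called.

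Compared per kb of exon, the members differed far more among themselves than between genotypes. In WT, Nrg2 stood at 48.3 CPM per kb, Nrg3 at 4.47, Erbb4 at 2.72, Nrg4 at 1.53, Erbb3 at 1.15, Nrg1 at 0.718, Erbb2 at 0.556 and Egfr at 0.241. The libraries of neighbours in this order overlapped for Nrg1 and Erbb2 alone. In cKO the levels in the same order of genes were 49.0, 6.96, 5.26, 1.72, 1.40, 0.892, 0.223 and 0.241 CPM per kb. There the libraries overlapped for Nrg3 and Erbb4, for Nrg4 and Erbb3, for Erbb3 and Nrg1, and for Erbb2 and Egfr. Nuclear RNA also holds introns, and whether reads in them were counted is not given in the sources used here. Per 100 kb of the whole gene Erbb3 would lead the receptors with 31.2 CPM in WT, ahead of Erbb2 at 11.5, Erbb4 at 3.12 and Egfr at 1.69. Among the neuregulins Nrg2 would still lead at 82.9 CPM, but Nrg4 at 14.7 would pass Nrg3 at 2.75. The order within both classes thus depends on which length applies.

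**Figure D3:**
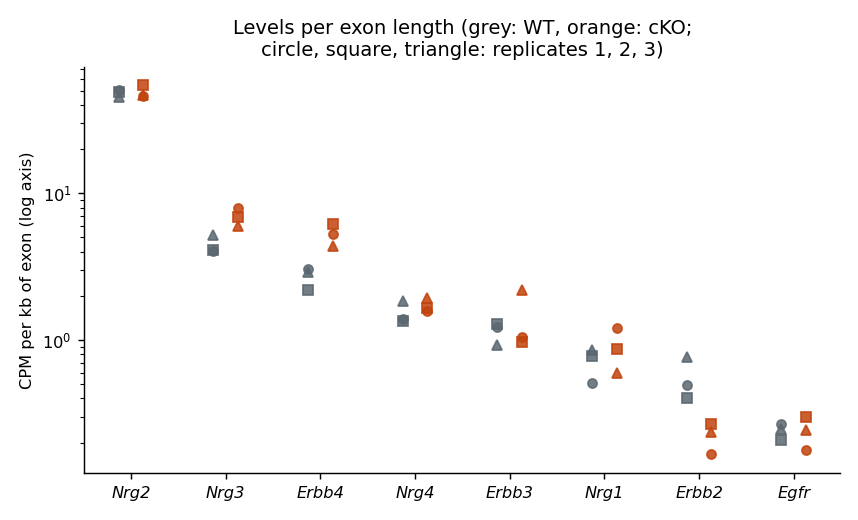
Level of each member in CPM per kb of exon (vertical axis, log scale), in the order of the WT means, with grey points for WT libraries, orange points for cKO libraries and circles, squares and triangles for replicates 1, 2 and 3. Nrg2 lies near 50 and Egfr near 0.24, and Erbb4 in cKO comes up to the range of Nrg3.

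The make-up of each class was computed on the exon scale. Erbb4 made up 60.5%, 53.6% and 59.9% of the receptor sum in WT and 78.9%, 79.9% and 62.3% in cKO. The cKO shares were all higher, though that of cKO replicate 3, the library with the high Erbb3 value, was close to the WT shares. The share of Erbb2 was 11.8 ± 3.47% in WT and 3.11 ± 0.533% in cKO. Among the neuregulins Nrg2 held 87.7 ± 2.32% in WT and 83.6 ± 2.29% in cKO, and Nrg3 8.15 ± 1.46% and 11.9 ± 1.89%. These shares restate the levels above and depend on the exon lengths.

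Members were also placed beside markers of other cells that NeuN-stained nuclei of the cerebellum may hold, since Erbb4 is known from inhibitory interneurons. The 15 interneuron markers summed to 287, 333.4 and 302 CPM in WT and 314, 287 and 295 CPM in cKO, with overlap. Of the 14 tested, edgeR and limma-voom called 0, as did DESeq2 among the 4 it gave an adjusted p. By edgeR 2 had an unadjusted p below 0.05, and the median log2 fold change was -0.04. Of all tested genes edgeR called 0.579%, and 11.9% had such an unadjusted p, so counts in a list this short say little. Gad1, which makes GABA, stood at 39.1 ± 1.13 and 39.6 ± 6.57 CPM, and Slc6a5, the glycine transporter of Golgi cells, at 2.91 ± 1.49 and 2.83 ± 1.30 CPM. Gad2, the other GABA-producing enzyme, had 7.19 ± 1.15 CPM (WT) and 10.4 ± 1.17 CPM (cKO). Its genotypes did not overlap, and it was not called (adjusted p = 0.329 by edgeR). Kit, a receptor kinase of molecular layer interneurons, lay the other way at 42.1 ± 3.88 and 34.7 ± 6.12 CPM (adjusted p = 0.409). These were the 2 with an unadjusted p below 0.05, and Kit is named for that. The interneuron marker sum averaged 308 ± 23.6 CPM in WT and 299 ± 13.8 CPM in cKO. Its bearing on the Erbb4 values was not tested.

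Eomes, a transcription factor of unipolar brush cells, was higher in every cKO library, as Erbb4 was, but was not called. It had 15.8, 6.14 and 9.003 CPM in WT and 21.6, 18.7 and 21.1 CPM in cKO, with no overlap, at a log2 fold change of 1.01 (SE 0.25, adjusted p = 0.0868 by edgeR). By limma-voom it was called, as it was without WT replicate 1. The 7 markers of these cells summed to 580 ± 17.7 CPM (WT) and 570 ± 14.1 CPM (cKO). Over all markers of other cell types 57 of 77 were tested, 0 were called by edgeR, 0 by DESeq2 among the 16 it gave an adjusted p, and 1 by limma-voom, and 4 (7.02%) had an unadjusted p below 0.05, against 11.9% of all tested genes. Among 15 granule cell markers 2 were called by edgeR, against 0.579% of all tested genes. Neurod1, at 142 ± 10.4 CPM in WT and 308 ± 17.7 CPM in cKO, was higher. Neurod2, a related factor, was lower at 86.6 ± 7.95 and 64.0 ± 3.98 CPM. The part of any of these cells in the Erbb4 and Nrg3 values was not tested.

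**Figure D4:**
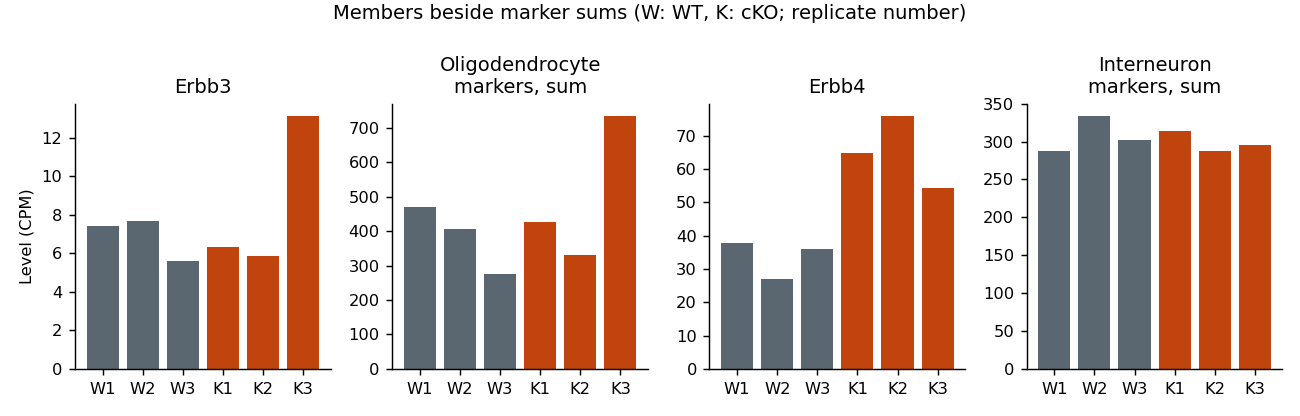
Bars from 0 give, for each library (W1 to W3 for WT, K1 to K3 for cKO), the level in CPM of Erbb3, the summed oligodendrocyte markers, Erbb4 and the summed interneuron markers. K3 is the highest bar for Erbb3 (13.1 CPM) and for oligodendrocyte markers (733 CPM), and the interneuron sums lie between 287 and 333.4 CPM.

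Around the members, 134 further genes of the pathway were listed by role, 125 of them tested. By edgeR 0 were called, beside 0.579% of all tested genes, and 22 (17.6%) had an unadjusted p below 0.05, beside 11.9% of all. DESeq2 called 1 (Plcg1) of the 67 it gave an adjusted p, and limma-voom called 0. The median log2 fold change was 0.07, with 83 genes above 0 and 42 below, beside -0.01 and 48.8% above 0 over all tested genes. Without WT replicate 1, 2 were called, Nptn and Spry4.

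Of 7 other ligands of the epidermal growth factor family, which bind Egfr or Erbb4, 3 were tested. Tgfa had a WT level of 4.98 ± 1.65 CPM and a cKO level of 6.11 ± 1.25 CPM, and Hbegf stood at 4.07 ± 0.926 and 3.40 ± 0.959 CPM, with overlap for both. Of the proteases that release ligands and cut receptors, 9 of 13 tested genes were above 0, with a median of 0.12. Bace1, the beta-secretase that cleaves neuregulins, was at 67.8 ± 7.63 and 81.2 ± 9.13 CPM (log2 fold change 0.26, SE 0.10, adjusted p = 0.288 by edgeR), and Adam19, a metalloprotease of ligand shedding, at 12.3 ± 1.67 and 17.0 ± 5.68 CPM (0.48, SE 0.21, adjusted p = 0.355). Negative regulators and ubiquitin ligases had a median of 0.12, with 15 of 20 above 0. Spry4, an inhibitor of receptor tyrosine kinase signalling, had 10.2, 6.42 and 7.67 CPM in WT and 17.6, 13.8 and 11.1 CPM in cKO (log2 fold change 0.82, SE 0.22, adjusted p = 0.0928). Itch, a ubiquitin ligase that acts on ErbB4, was at 35.8 ± 0.900 and 44.2 ± 4.39 CPM (0.30, SE 0.12, adjusted p = 0.290).

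Of the adaptors, exchange factors and scaffolds that bind activated receptors, 17 of 23 were above 0, with a median of 0.08. Plcg1, the phospholipase docked to such receptors, had 214, 196 and 213 CPM in WT and 251, 269 and 234 CPM in cKO (log2 fold change 0.28, SE 0.08, adjusted p = 0.111 by edgeR), and Nck2, an adaptor, had 30.5 ± 0.901 and 39.8 ± 2.68 CPM (0.39, SE 0.12). In the Ras and MAP kinase branch, with a median of 0.04 over 22 genes, Map2k4, which activates JNK, stood at 31.0 ± 4.13 and 42.4 ± 4.28 CPM (0.45, SE 0.13, adjusted p = 0.114). Jun, a transcription factor downstream of JNK, differed the other way, at 24.0 ± 2.25 and 17.2 ± 1.71 CPM (-0.48, SE 0.15, adjusted p = 0.158). In the PI3-kinase and AKT branch the median was 0.01 over 30 genes. Akt2, a survival kinase, was at 50.1 ± 6.77 and 64.1 ± 3.49 CPM (0.35, SE 0.11, adjusted p = 0.146), and Bad, a cell death factor that AKT inhibits, at 10.7 ± 1.65 and 6.55 ± 0.345 CPM (-0.70, SE 0.23, adjusted p = 0.164). These genes are named as the 2 of smallest p in each list, and none was called by edgeR.

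The synaptic list held receptor subunits that neuregulin is known to act on in granule cells and partners of ErbB4 at synapses, 14 in all. Its median was 0.13, with 9 above 0. By edgeR or limma-voom 0 were called, nor any by DESeq2 among the 10 it gave an adjusted p. At an unadjusted p below 0.05 by edgeR there were 3. Of all tested genes edgeR called 0.579%, and 11.9% had such an unadjusted p. Nptn, a synaptic adhesion protein, stood at 69.0 ± 9.27 and 86.6 ± 5.54 CPM (log2 fold change 0.33, SE 0.10, adjusted p = 0.136 by edgeR), and Dlgap1, a scaffold of the postsynaptic density, at 354 ± 22.9 and 412 ± 14.5 CPM (0.22, SE 0.07, adjusted p = 0.205). Grin2c and Gabrb2, the NMDA and GABA-A receptor subunits classically tied to neuregulin in granule cells, were looked up for that link. Grin2c stood at 997 ± 22.4 and 960 ± 120 CPM, and Gabrb2 at 76.8 ± 11.8 and 84.4 ± 3.72 CPM. Both overlapped between genotypes, with log2 fold changes of -0.05 (interval -0.21 to 0.10) and 0.14 (interval -0.07 to 0.34).

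**Figure D5:**
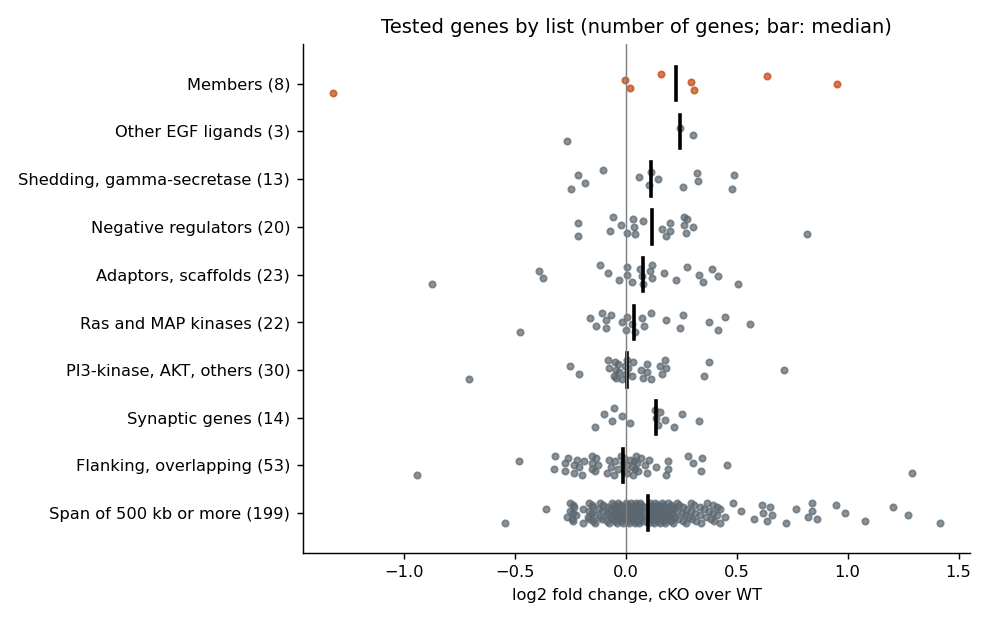
Log2 fold change, cKO over WT (horizontal axis), of every tested gene in the member family (orange) and in the pathway, flanking and long-gene lists (grey), with the number of genes in brackets and a black bar at each median. The medians of the pathway lists lie between 0.01 and 0.24, that of flanking genes at -0.01 and that of long genes at 0.10.

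The members were looked at beside the genes around them, with values given here for the flanking genes of Erbb4 alone. Of 55 genes that flank or overlap the members 53 were tested. Of these edgeR and limma-voom called 0, as did DESeq2 among the 10 it gave an adjusted p, and 5 (9.43%) had an unadjusted p below 0.05, against 11.9% of all tested genes. Without cKO replicate 2, 1 was called, Scaper. Next to Erbb4, Ikzf2, a transcription factor gene 422.6 kb away, was at 13.03 ± 1.99 and 13.4 ± 2.32 CPM (log2 fold change 0.03). On the other side Lancl1, Acadl and Kansl1l, 993.0 to 1214.3 kb away, had log2 fold changes of -0.05, -0.26 and -0.01. Atic had -0.13 and Fn1, the fibronectin gene 2476.9 kb away, -0.94 (SE 0.33, adjusted p = 0.219 by edgeR).

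Erbb4, Nrg3 and Nrg1 each span more than 1000 kb, and long genes as a class leaned the same way. The other 199 tested genes of at least 500 kb had a median log2 fold change of 0.10, with 141 above 0 and 58 below, that is 70.8% above 0 against 48.8% of all tested genes. Of these 199, 33 (16.6%) had an unadjusted p below 0.05 by edgeR, against 11.9% of all tested genes. Called genes numbered 2 (1.00%, against 0.579% of all), both higher. Pde4b, a cyclic AMP phosphodiesterase, stood at 99.4 ± 10.5 and 134 ± 4.54 CPM, and Fam155a at 103 ± 4.59 and 135 ± 13.2 CPM. The count of called long genes was 0 without WT replicate 2, WT replicate 3 or cKO replicate 1. It was 1 without cKO replicate 3 and 9 without cKO replicate 2. Ordered by log2 fold change among the 202 long genes with the members included, Erbb4 was the 6th, Nrg3 the 16th and Nrg1 the 41st. Whether length plays a part in the Erbb4 and Nrg3 values was not tested.

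Over 9871 genes whose mean reached 5 CPM, the profile over the 6 libraries most like that of Erbb4 (Pearson's r of log2 CPM) was that of Med13l, at r = 0.997. It was followed by Plcg1 and Hdhd5 (both 0.993), Zfp108 (0.992) and Lpar6 (0.990). Such values share the libraries, their depth and the genotype difference, and with 6 points many genes reach them. With the genotype means taken off, the leading genes were others: Slitrk1 (0.996), Mterf2 (0.995), Zfp426 (0.994), Tango6 (0.994) and Flrt1 (0.992). Of the family, Nrg3 had the highest r with Erbb4 (0.89), and Erbb3 had -0.03 and Erbb2 -0.71. With the genotype means taken off the order was another, with Egfr at 0.54, Erbb2 at 0.49, Nrg3 at 0.45 and Erbb3 at -0.71, so the sign for Erbb2 turned.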

How the data were processed

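Nuclear RNA-seq of 3 WT and 3 cKO libraries was analysed. The authors deposited 1 table of whole-number read counts per gene, not normalized. Reads were handled with Subread against mm10, per the submitters' processing notes. The version, annotation, strand use, multimapping and treatment of intron reads were not given in the sources used here. The members and gene lists were chosen with earlier results of these data known.

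Of 24594 entries, 24570 matched RefSeq GRCm38.p6 by gene identifier. An unmatched entry held 26.0% of counts and stayed in the library sizes. Exon lengths are unions of GENCODE M21 exons. Counts were tested in R 4.3.3 with edgeR 4.0.16 (filterByExpr, TMM factors of 0.982 to 1.02, robust glmQLFit and glmQLFTest over all 6 libraries, two-sided), with Benjamini-Hochberg adjustment over 13115 genes. An exact permutation test of 3 against 3 libraries cannot go below p = 0.1 and was not used. No pair of libraries of 1 genotype was within sampling noise of each other (chi-square over degrees of freedom, 4.03 to 5.00). The steps were tested on simulated data. Likeness to Erbb4 used log2(CPM + 1).

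The text names all members, called genes of each pathway list or else the 2 of smallest p, called genes of each marker list and some defining markers, flanking genes of Erbb4, overlapping genes with counts, and the 5 genes most like Erbb4. Grin2c and Gabrb2 were added for their known link to neuregulin, and Kit after its values were seen. DESeq2 gave no adjusted p to many low genes, and these are not counted as judged by it. Alternatives were other scalings, no filter, DESeq2 1.42.0, limma-voom (limma 3.58.1), the replicate number as a block, and leaving out libraries.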

Additional observations from a re-analysis of the deposited data

How the results depend on the processing

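Erbb4 was called under all 13 alternatives (log2 fold change 0.82 to 1.07) and Nrg3 under 9 of 13 (0.46 to 0.77). The count of called members, 2, was 1 with limma-voom and 1 with both libraries numbered 1 left out, and 1 to 2 when a library was left out. The count of called pathway genes, 0, was 2 with no filter (Spry4, Map2k4), 1 with DESeq2 and 0 to 2 with a library left out. For markers of other cell types, 0 became 2 with no filter (Eomes, Gfap), 1 with limma-voom, 1 with the replicate block, 1 with both libraries numbered 1 left out (Eomes) and 0 to 1 with a library left out. Flanking genes gave 0 to 1 with a library left out. Long genes, 2 called, gave 4 by library size alone, 8 with no filter, 4 with DESeq2, 1 with limma-voom, 1 with both libraries numbered 1 left out and 0 to 9 with a library left out. The causes were not tested.

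Log2 fold changes near 0 turned sign. Egfr (-0.0029) was 0.0292 by library size alone, 0.0015 without the 4 most abundant entries, 0.0019 with DESeq2, 0.2526 with both libraries numbered 1 left out and -0.1901 to 0.1781 with a library left out. Erbb3 ran from -0.1652 to 0.4954 and Nrg2 from -0.0653 to 0.0678 with a library left out, and Nrg1 was -0.1657 with both libraries numbered 1 left out. Erbb2 stayed below 0 (-1.50 to -0.99) and was called in 0 of the 12 alternatives that gave an adjusted p, with none from DESeq2.

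Same-numbered libraries did not all deviate together (r of 0.16, 0.007 and -0.04 over genes for numbers 1, 2 and 3). The libraries numbered 1, which were those high in Xist, had the highest r of any WT and cKO pair. Not every library correlated best with its own number, so the numbers are not taken as pairs. With the replicate block Erbb4 had 0.95 and Nrg3 0.63, both called, and 90 genes were called in place of 76. All calls ranged from 13 (without WT replicate 3) to 277 (no filter). Depth limits Erbb2 and Egfr, at 6 to 33 counts per library, most.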
